A study of Rattus norvegicus with 48 samples.

Results

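The cytochrome P450 genes measured here were the 33 probe sets, of 8797 on the deposited array table, whose single gene symbol places them in a numbered Cyp family. Cyp1a1, Cyp1a2, Cyp1b1, Cyp2c11 and Cyp2d2 were left out of 38 such probe sets, and 12 further P450 probe sets that carry several symbols were not counted. Each of the 33 genes had 1 probe set, and all 33 symbols matched the current rat RefSeq annotation. Kidneys came from male rats of 4 strains named FL, LF, F and L, a code the labels leave unexplained, so the genotype of each strain is given here only as that letter. In each strain 1 group received the vegetable oil carrier (day 0), and the others 100 mg of indole-3-carbinol per kg body weight each day by gavage for 7 or 10 days. Indole-3-carbinol is a plant indole whose products activate the aryl hydrocarbon receptor. The rats were 12 weeks old in the sample labels and up to 14 weeks in the treatment protocol, which names 8 rats per group. Each of the 12 groups had 4 arrays called biological replicates, and whether 1 array holds 1 rat or a pool is not stated. A p-value therefore measures the spread between these arrays.

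Cytochrome P450 enzymes are haem proteins that use oxygen and electrons, passed on by the reductase Por or by ferredoxin, to oxidise fatty acids, steroids, vitamins and foreign compounds. In the kidney the best known of them make lipid mediators from arachidonic acid and control the level of active vitamin D. The proximal tubule holds much of the P450 protein of this organ. The genes of families 1 to 3 that oxidise foreign compounds are known as targets of receptors such as the aryl hydrocarbon receptor, PXR and CAR. Of family 4 the Cyp4a genes are known as targets of PPARα, and the genes measured here include no Cyp4a gene.

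The adjacent genes Cyp4f1 and Cyp4f6, which both differed between strains but not in the same pairs throughout, lie on chromosome 7 with 0 protein-coding genes between them in the GRCr8 assembly. Cyp4b1, on chromosome 5, was the 1 of 33 genes called after 7 days of treatment. It fell, as did 3.75% of all probe sets. The RefSeq promoters of these 3 genes are shown as those of an adjacent pair and of that gene. Other P450 genes also differed by strain, and for Cyp24a1 no promoter was available. Each is the 250 bases before the annotated gene start, read 5′ to 3′ on the minus strand, and capitals mark GCGTG or its reverse complement CACGC, the core letters of the element that the aryl hydrocarbon receptor binds.
Cyp4f1, chr7:12672554-12672803: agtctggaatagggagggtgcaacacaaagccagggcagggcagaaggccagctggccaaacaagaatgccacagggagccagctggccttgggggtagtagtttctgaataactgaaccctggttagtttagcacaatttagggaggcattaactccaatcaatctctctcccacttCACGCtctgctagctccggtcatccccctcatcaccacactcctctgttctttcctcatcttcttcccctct
Cyp4f6, chr7:12708379-12708628: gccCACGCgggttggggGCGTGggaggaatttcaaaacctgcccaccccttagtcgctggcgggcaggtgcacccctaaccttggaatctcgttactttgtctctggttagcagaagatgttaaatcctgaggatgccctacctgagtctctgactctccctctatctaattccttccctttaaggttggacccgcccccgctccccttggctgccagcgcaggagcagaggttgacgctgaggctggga
Cyp4b1, chr5:134393117-134393366: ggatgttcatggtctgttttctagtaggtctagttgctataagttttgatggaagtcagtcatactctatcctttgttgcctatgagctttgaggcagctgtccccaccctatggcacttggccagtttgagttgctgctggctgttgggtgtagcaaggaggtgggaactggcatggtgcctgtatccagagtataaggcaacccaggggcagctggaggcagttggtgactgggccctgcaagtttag

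Over the full RefSeq window, which adds 50 bases after the start, Cyp4f1 held 1 match, Cyp4f6 held 2 and Cyp4b1 held 0. The letters were found in 28.6% of the 28 P450 promoters in the table (8 of them), against 29.7% of 33469 rat promoters of 300 bases. The other P450 promoters with a match were those of Cyp4f5, Cyp4x1, Cyp2t1, Cyp20a1, Cyp26a1 and Cyp26b1. The P450 share was thus close to that of all promoters.

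Values are log2 signals per probe set, so a difference of 1 is a doubling of signal. Probe sets differ in how brightly they respond, so a mean signal describes its probe set, and an order by signal is no order of RNA amounts between genes. The array medians lay between 5.66 and 6.06, the correlation of arrays within a group between 0.979 and 0.992, and the array file names in the labels gave 1 name stem to each replicate number. The 4 stems, each with 1 array of every group, are read here as 4 array runs, which no label states. All tests come from 1 limma fit over the 48 arrays, with p-values adjusted over the 8797 probe sets by Benjamini and Hochberg and a threshold of 0.05. The number of arrays limits the precision. A background below is the share of all probe sets past this adjusted threshold. For counts of genes at an unadjusted p under 0.05 no such share was counted, so the backgrounds do not apply to them.

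Of the 33 genes, 17 had a mean log2 signal above the lower quartile of all probe sets (3.64) and 16 lay in the dimmest 25%, where an array can show little change. The family 2 genes Cyp2c23 (mean 12.30), Cyp2e1 (10.63), Cyp2d4 (7.65), Cyp2j4 (7.27), Cyp2t1 (6.61), Cyp2d3 (4.67) and Cyp2f4 (4.54) were among the 17. So were 4 of 6 family 4 genes, namely Cyp4f1 (9.60), Cyp4f6 (7.90), Cyp4b1 (6.88) and Cyp4f5 (4.99). The vitamin D genes Cyp24a1 (7.55) and Cyp27a1 (6.45), the retinoic acid hydroxylases Cyp26a1 (4.86) and Cyp26b1 (4.58), the sterol hydroxylase Cyp8b1 (5.82) and Cyp20a1 (7.09), a P450 with no well-established substrate, made up the rest.

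Many of the dim genes are known for roles in other organs. All 4 steroid hormone genes were dim, with means of 2.72 to 3.56, namely Cyp11a1 and Cyp17a1, which start and branch steroid synthesis, Cyp21a1 of cortical steroid synthesis, and Cyp19a1, the aromatase that makes oestrogens. All 3 family 3 genes (Cyp3a2, Cyp3a18 and Cyp3a23-3a1) lay between 2.11 and 2.18, beside Cyp2c12 (2.12) and Cyp2b21 (2.14) among the dimmest. The remaining dim genes were Cyp2a1, Cyp2a3, Cyp2c13 and Cyp2c22 of family 2, Cyp4f4 and Cyp4x1 of family 4, and Cyp7a1, the rate-limiting enzyme of liver bile acid synthesis (2.69). The liver markers Alb (mean 2.96), Serpina1 (3.495), Cps1 (3.40) and Tat (2.86) were dim as well, while Apoh (5.335), Ahsg (3.74) and Fgb (5.72) were not. Of the adrenal markers outside the P450 family, Akr1b7 (2.56) was dim, and Star (4.18), Dbh (4.23) and Th (4.38) were not. The kidney marker Slc34a1, a proximal tubule phosphate transporter, was bright (mean 12.01).

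The genes differed in how much they varied between arrays of a group. Cyp24a1 had a residual SD of 0.534, above 96.1% of all probe sets. Cyp8b1 (0.451) and Cyp2j4 (0.360) lay above 93.1% and 87.5%. The median over the 33 genes was 0.167, against 0.206 over all probe sets. Cyp2c23, the main arachidonic acid epoxygenase of the rat kidney, was among the steadiest with 0.116, and only 5.98% of probe sets had a lower value.

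More of the 33 P450 genes, which leave out Cyp1a1, Cyp1a2 and Cyp1b1, passed the strain test than passed any comparison of days. Days were compared in pairs, and no F test of days alone was run. In the F test of the 4 strains over the mean of days, 10 of 33 genes passed the threshold (30.3%), against 12.9% of all probe sets. These were Cyp4f6 (adjusted p = 2.48e-10), Cyp24a1 (2.61e-07), Cyp4f1 (5.51e-07), Cyp2d4 (1.12e-05), Cyp8b1 (2.55e-05), Cyp2d3 (2.91e-05), Cyp4b1 (0.00133), Cyp2c23 (0.00762), Cyp26a1 (0.021) and Cyp26b1 (0.0489). Cyp2e1 stood at an adjusted p of 0.05 and did not pass, but passed in 6 of 7 alternative settings (adjusted p = 0.000118 to 0.0437), all but the one without the 5 least spread arrays. All 10 came from the 17 brighter genes. Cyp2c23 lost its call without replicate number 1, 2 or 3 (adjusted p = 0.146, 0.0926 and 0.0586), Cyp26a1 without number 1 or 3 (0.262 and 0.129), and Cyp26b1 without any 1 of the 4 numbers (0.107 to 0.223). Cyp26b1 also lost it with array medians subtracted (0.0975), with another variance model (0.0503) and without the 5 least spread arrays (0.103). The signal of a probe set and differences between strains in the sequence it probes cannot be told apart with these values.

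**Figure D1:**
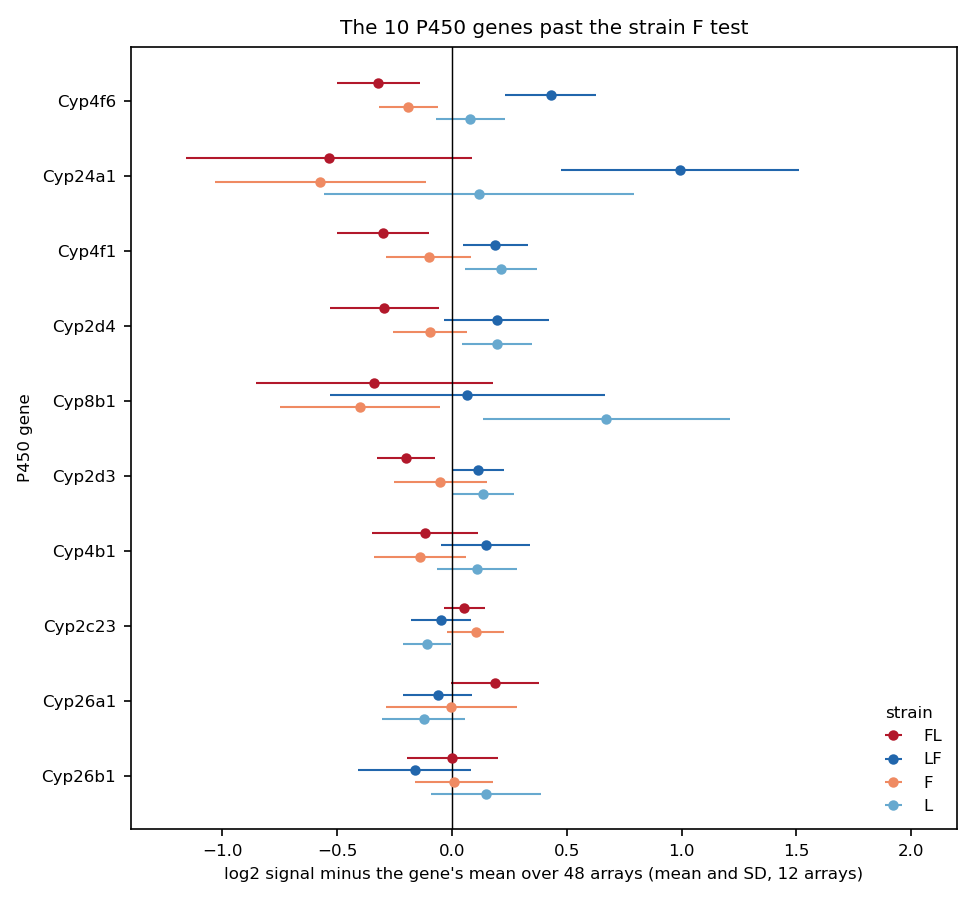
Mean log2 signal of each strain minus the mean of the gene over all 48 arrays, for the 10 P450 genes past the strain F test. Points are means over 12 arrays and bars are SDs, with strains FL, LF, F and L from top to bottom within a gene. In Cyp4f6, Cyp4f1, Cyp2d4, Cyp2d3, Cyp4b1, Cyp24a1 and Cyp8b1 both FL and F lay below the gene's mean and both LF and L above it.

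In 7 of the 10 genes (Cyp4f6, Cyp4f1, Cyp2d4, Cyp2d3, Cyp4b1, Cyp24a1 and Cyp8b1) the means of FL and F were both below those of LF and L, and in Cyp2c23 and Cyp26a1 both were above. Set against each other over all days, FL and F differed in 0 of 33 genes (background 0.352%). An unadjusted p under 0.05, for which no background was counted, was found for 6 genes, so this count cannot be set against all probe sets. With the array run as a block, Cyp4f1 passed in that pair (-0.20 ± 0.050, adjusted p = 0.0404), where 0.796% of all probe sets then passed. LF and L differed in 2 of 33 genes, Cyp24a1 and Cyp4f6 (background 0.693%). Between F and L 9 genes differed (background 7.32%), between FL and L also 9 (9.67%), between LF and F 6 (7.57%), and between FL and LF 7 (10.7%). The block added Cyp20a1 (-0.24 ± 0.077, adjusted p = 0.0291), Cyp27a1 (-0.19 ± 0.066, adjusted p = 0.0449) and Cyp2c23 for FL against LF, Cyp2j4 for FL against L (-0.39 ± 0.12, adjusted p = 0.016) and Cyp2c23 for LF against F. With the block, the shares of all probe sets past the threshold rose too. They were 16.8% for FL against LF, 16.8% for FL against L and 10.4% for LF against F. These 6 pairs over the mean of days were added after the data had been seen, and pairs that share a strain are not independent.

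The family 4 genes Cyp4f1 and Cyp4f6 encode enzymes that hydroxylate leukotriene B4 in the rat. The log2 signal of Cyp4f6 (probe set 7322712) ran from 7.20 to 7.86 on the 12 FL arrays (median 7.59) and from 7.90 to 8.57 on the 12 LF arrays (median 8.42). It ran from 7.42 to 7.89 in F (median 7.72) and from 7.75 to 8.19 in L (median 8.02). All 12 LF arrays lay above all FL and all F arrays, while L overlapped each of the other strains. The signal was lower in FL than in LF by 0.75 ± 0.072 (SE) on the log2 scale (difference -0.75, adjusted p = 1.75e-10), and by between 0.70 and 0.81 in each of the 4 runs. It was higher in LF than in F by 0.62 ± 0.072 (1.54-fold, adjusted p = 2.16e-08) and higher in LF than in L by 0.35 ± 0.072 (adjusted p = 0.00564). F stood at -0.27 ± 0.072 against L (adjusted p = 0.0111). The LF against L difference lost its call without replicate number 1, 2 or 3 (adjusted p = 0.0749, 0.342 and 0.0768), and F against L without number 1 or 3 (0.0521 and 0.255).

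Cyp4f1 (probe set 7322709) ran from 8.96 to 9.53 in FL (median 9.33), from 9.55 to 10.01 in LF (median 9.77), from 9.20 to 9.86 in F (median 9.45) and from 9.52 to 10.07 in L (median 9.84). Here FL was the lowest strain and LF and L did not differ past the threshold (-0.026, with means of 9.78 in LF and 9.81 in L). FL lay below LF (-0.49 ± 0.073, adjusted p = 3.91e-06) and below L (-0.52 ± 0.073, adjusted p = 1.61e-06), and the difference from L lay between -0.48 and -0.55 in all 4 runs. F lay below L (-0.32 ± 0.073, adjusted p = 0.00273) and LF above F (0.29 ± 0.073, adjusted p = 0.00667). These last differences lost their calls without number 2 (adjusted p = 0.076 and 0.186) or number 3 (0.088 and 0.0828). Cyp4f1 and Cyp4f6 are similar in sequence and how far their probes share targets was not tested. Cyp4f5 and Cyp4f4, on the same chromosome, did not pass the strain test.

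**Figure D2:**
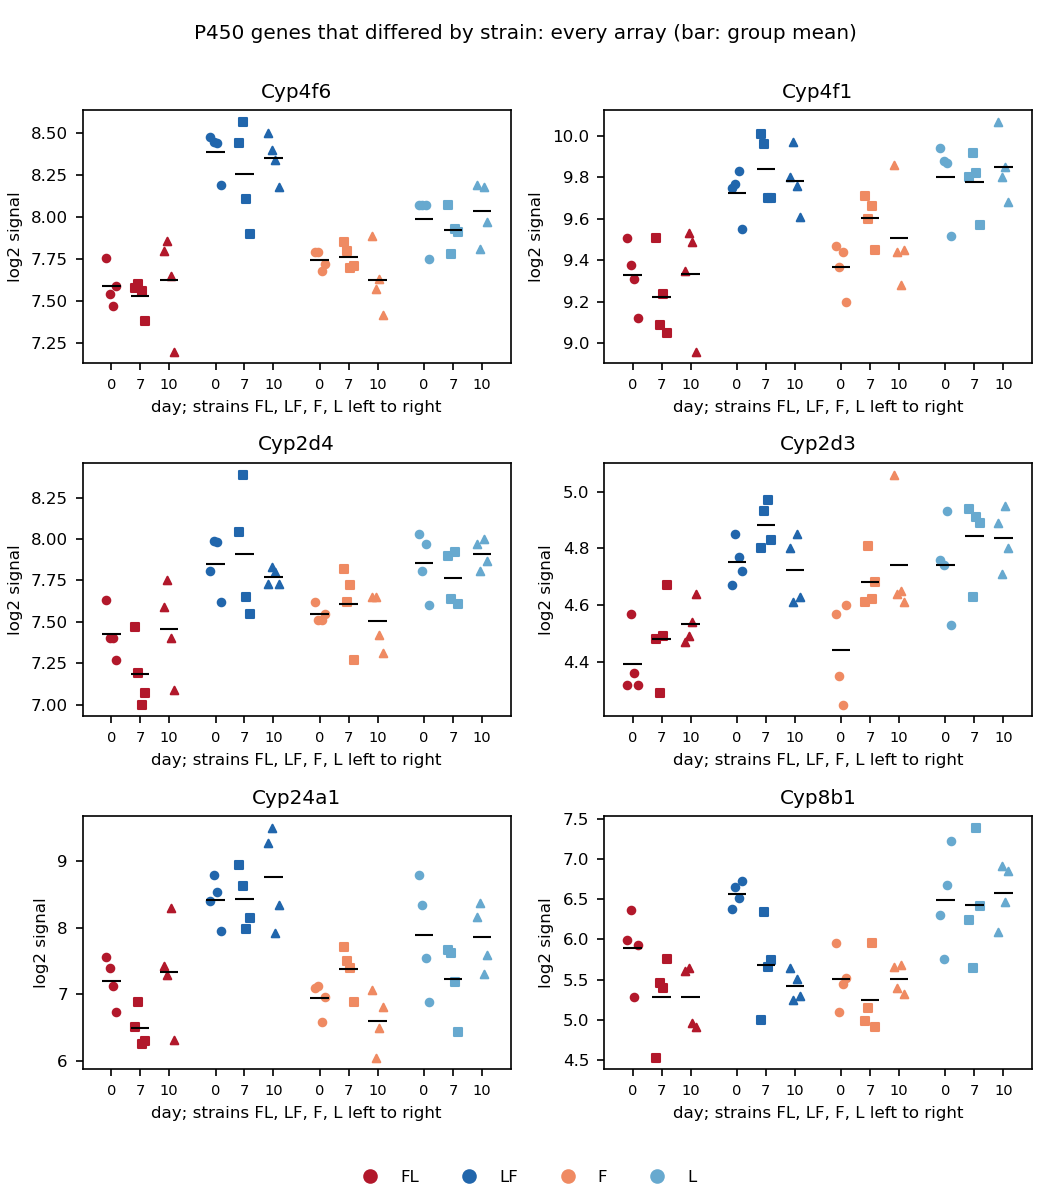
Log2 signal of every array for 6 P450 genes that differed by strain, with strains FL, LF, F and L from left to right, days 0, 7 and 10 within each strain, and a bar at the mean of the 4 arrays of a group. In Cyp4f6 the 12 LF arrays (7.90 to 8.57) stand above all FL and F arrays, and in Cyp8b1 the LF arrays of days 7 and 10 lie below those of day 0.

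Cyp24a1, which inactivates the active form of vitamin D, had the widest range between strains. Its log2 signal (probe set 7248318) ran from 6.25 to 8.30 in FL (median 7.01), from 7.92 to 9.51 in LF (median 8.47), from 6.05 to 7.72 in F (median 7.01) and from 6.43 to 8.80 in L (median 7.61). Every LF array lay above every F array. The difference between LF and F was 1.57 ± 0.21 (2.96-fold, 95% interval 1.14 to 1.99, adjusted p = 5.54e-07), with 1.27 to 2.09 in the 4 runs. FL lay below LF by a similar amount (-1.53 ± 0.21, adjusted p = 8.24e-07), and LF lay above L (0.88 ± 0.21, adjusted p = 0.026) in 4 of 4 runs. F and FL lay below L by smaller amounts (-0.69 ± 0.21, adjusted p = 0.0327, and -0.65 ± 0.21, adjusted p = 0.0385). LF against L lost its call without any 1 replicate number (adjusted p = 0.117 to 0.198), F against L without number 1, 2 or 3 (0.175, 0.327 and 0.0859) and FL against L without number 1 or 2 (0.189 and 0.162). FL also lost its call against L after a second quantile normalization (0.0544), with array spread in the model (0.237) and without the 5 least spread arrays (0.31).

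In carrier kidneys alone Cyp24a1 was at 8.40, 8.80, 8.54 and 7.96 in LF, and at 7.09, 7.12, 6.59 and 6.96 in F. No LF value overlapped an F value, and the difference was 1.49 ± 0.36 (adjusted p = 0.015). It lost its call without number 1, 2 or 3 (adjusted p = 0.0806, 0.162 and 0.153). Cyp27a1, the sterol side chain hydroxylase, had a strain F test at an adjusted p of 0.205.

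Among the genes that handle vitamin D and its targets, Vdr, the vitamin D receptor, differed between LF and F by 0.027 ± 0.076 (adjusted p = 0.931). Gc, the carrier protein of vitamin D in plasma, was higher in LF than in F (0.41 ± 0.11, adjusted p = 0.0112) and Kl, the klotho co-receptor of Fgf23, was lower (-0.22 ± 0.065, adjusted p = 0.0258). Cubn, an uptake receptor of the proximal tubule, was lower too (-0.20 ± 0.059, adjusted p = 0.0247). Without single replicate numbers each of these 3 calls was lost, with adjusted p up to 0.202 for Gc, 0.285 for Kl and 0.204 for Cubn. The background for LF against F was 7.57%, and the genes named here were chosen after their values were seen.

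Cyp8b1, the liver sterol hydroxylase that sets the share of cholic acid among bile acids, was brightest in L over the mean of days. Its log2 signal (probe set 7341587) ran from 4.53 to 6.37 in FL (median 5.54), from 5.0 to 6.72 in LF (median 5.70), from 4.91 to 5.96 in F (median 5.43) and from 5.64 to 7.39 in L (median 6.45). F lay below L by 1.07 ± 0.18 (difference -1.07, L over F 2.11-fold, adjusted p = 2.63e-05) and FL below L by 1.01 ± 0.18 (difference -1.01, adjusted p = 7.14e-05). Both differences were below 0 in 4 of 4 runs, from -0.68 to -1.58 for F and from -0.28 to -1.63 for FL. The strains F and L overlapped at 5.64 to 5.96. In carrier kidneys alone LF did not differ from L at an unadjusted p under 0.05. There LF stood 1.06 ± 0.31 above F (adjusted p = 0.0562), which passed with the array run as a block (0.0489).

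Cyp2d4 and Cyp2d3 belong to the subfamily of the human drug-oxidising enzyme CYP2D6 and lie 2 protein-coding genes apart on chromosome 7. Cyp2d4 (probe set 7330145) ran from 7.00 to 7.75 in FL (median 7.40), from 7.55 to 8.39 in LF (median 7.81), from 7.27 to 7.82 in F (median 7.59) and from 7.60 to 8.03 in L (median 7.89). FL lay below LF (-0.49 ± 0.082, adjusted p = 3.32e-05) and below L (-0.49 ± 0.082, adjusted p = 3.54e-05) in 4 of 4 runs. F lay below L (-0.29 ± 0.082, adjusted p = 0.019) and LF above F (0.29 ± 0.082, adjusted p = 0.0194). F against L lost its call without number 1 or 3 (adjusted p = 0.0774 and 0.268), and LF against F without number 2 or 3 (0.241 and 0.11).

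Cyp2d3 (probe set 7330164) ran from 4.29 to 4.67 in FL (median 4.49), from 4.61 to 4.97 in LF (median 4.80), from 4.25 to 5.06 in F (median 4.62) and from 4.53 to 4.95 in L (median 4.85). It was lower in FL than in LF (-0.32 ± 0.057, adjusted p = 9.88e-05) and than in L (-0.34 ± 0.057, adjusted p = 4.16e-05). F against L stood at -0.19 ± 0.057 (adjusted p = 0.0345) and lost its call with array medians subtracted (0.187), without the 5 least spread arrays (0.0615) and without any 1 replicate number (0.0525 to 0.605).

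Cyp4b1, which oxidises fatty acids and activates some plant toxins, was also lower in F and FL. F lay below L (-0.25 ± 0.068, adjusted p = 0.0147), LF above F (0.29 ± 0.068, adjusted p = 0.00392) and FL below LF (-0.26 ± 0.068, adjusted p = 0.0073). FL against L (-0.23 ± 0.068, adjusted p = 0.0264) lost its call after a second quantile normalization (0.161), with array medians subtracted (0.0843), with array spread in the model (0.151) and without the 5 least spread arrays (0.285). That last setting also ended the call of FL against LF (0.0755). Each of the 4 differences of Cyp4b1 lost its call without 1 or more replicate numbers, with adjusted p up to 0.145 for F against L, 0.0749 for LF against F, 0.0825 for FL against LF and 0.41 for FL against L. In the other direction, Cyp2c23 was higher in F than in L (12.40 ± 0.12 and 12.19 ± 0.10, SD over 12 arrays), a difference of 0.21 ± 0.051 (adjusted p = 0.0042). Without replicate number 1 or 2 that call was lost (0.0808 and 0.0719). Cyp2c23 was also higher in FL than in L (0.16 ± 0.051, adjusted p = 0.0329), a call lost without number 1, 2 or 3 (0.139, 0.132 and 0.106). LF against F stood at -0.15 ± 0.051 (adjusted p = 0.0611) and passed in 7 of 7 alternative settings (8.03e-05 to 0.0496, and 0.00118 with the array run as a block). FL against LF stood at 0.10 ± 0.051 (adjusted p = 0.209) and passed in 4 of them, the block (0.0271), a second quantile normalization (0.0219), array medians subtracted (0.000916) and array spread in the model (0.000352). Cyp2e1 was higher in F than in L (0.29 ± 0.091, adjusted p = 0.0428) and lower in LF than in F (-0.29 ± 0.091, adjusted p = 0.0384), and both calls were lost without any 1 of the numbers (0.0977 to 0.169 and 0.0623 to 0.211). The Cyp2e1 call of LF against F was also lost without the 5 least spread arrays (0.0513). By group means LF and F lay closer at day 0 than at days 7 and 10. The F test for a response that differs between strains did not pass for Cyp2e1 (adjusted p = 0.667). At day 0 Cyp2e1 averaged 10.80 in LF and 10.81 in F, at day 7 10.34 and 10.835, and at day 10 10.48 and 10.86. Cyp26a1, which clears retinoic acid, was higher in FL than in L (0.31 ± 0.079, adjusted p = 0.00674), a call lost without number 1 or 3 (0.089 and 0.108). It was higher in FL than in LF (0.25 ± 0.079, adjusted p = 0.0317), a call lost without any 1 of the numbers (0.054 to 0.235).

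At day 0, with 4 carrier arrays per strain, fewer P450 genes differed. The backgrounds given are for the adjusted p, and none was counted for the unadjusted p. The counts were 0 of 33 for F against L (background 1.55%, 9 genes at an unadjusted p under 0.05), 0 for FL against F (0.0682%, 1 gene unadjusted), 0 for LF against L (0.193%, 4 genes unadjusted), 1 for FL against L (1.59%), 2 for LF against F (2.11%) and 2 for FL against LF (3.07%). The called genes were Cyp4f1 for FL against L (-0.47 ± 0.13, adjusted p = 0.0373), and Cyp24a1 and Cyp4f6 for LF against F. For FL against LF they were Cyp2d3 (-0.36 ± 0.098, adjusted p = 0.0313) and Cyp4f6 (-0.80 ± 0.12, adjusted p = 3.26e-05). Cyp4f1 lost its call without number 1, 2 or 3 (adjusted p = 0.0908, 0.339 and 0.451), and Cyp2d3 without any 1 number (0.0755 to 0.219) and with array medians subtracted (0.151). With the array run as a block the 6 counts were 3, 0, 1, 4, 4 and 5 in the same order, and the shares of all probe sets past the threshold were 2.22%, 0.125%, 0.341%, 2.66%, 3.42% and 6.18%.

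In carrier kidneys Cyp4f6 was at 8.48, 8.45, 8.44 and 8.19 in LF, and at 7.79, 7.79, 7.68 and 7.72 in F. All LF values were higher, and the difference was 0.65 ± 0.12 (adjusted p = 0.000909), which lost its call without number 3 (0.0772). In FL it was at 7.76, 7.54, 7.47 and 7.59, all below the LF values. In L it was at 8.07, 8.07, 8.07 and 7.75, and the difference of LF from L (0.40 ± 0.12, adjusted p = 0.371) passed with the run as a block (0.0479). Cyp4f1 in F against L stood at -0.43 ± 0.13 (adjusted p = 0.0795) and passed with the block (0.00183), where Cyp2e1 (0.51, adjusted p = 0.0272) and Cyp2c23 (0.21, adjusted p = 0.0343) passed too.

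Of 27 measured receptors and factors that regulate P450 genes, 5 were higher in LF than in F and 0 lower over the mean of days. They were Rxrg, a retinoid X receptor (1.27 ± 0.088, adjusted p = 1.74e-14), Ppara, a fatty acid receptor (0.45 ± 0.092, adjusted p = 0.000759), Hnf4a (0.16 ± 0.045, adjusted p = 0.023), Dbp (0.70 ± 0.12, adjusted p = 3.82e-05) and Tef (0.31 ± 0.084, adjusted p = 0.0141). Hnf4a and Tef lost their calls without single replicate numbers (adjusted p up to 0.203 and 0.143). Of 12 measured electron transfer and haem supply genes, Pgrmc1 (0.39 ± 0.093, adjusted p = 0.00409) and Hmox2 (0.35 ± 0.072, adjusted p = 0.000645) were higher in LF than in F and 0 were lower. Pgrmc1, a haem-binding partner of P450 enzymes, lost its call without number 1 or 2 (0.0551 and 0.141). The background for probe sets past the threshold in this pair was 7.57%.

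Markers of cell types and of injury differed between strains too, over the mean of days, which takes in the treated kidneys of days 7 and 10. The mean of 6 injury markers was 6.81 in LF and 6.57 in L at day 0. It was 7.72 and 6.55 at day 7, and 8.51 and 7.1 at day 10, so the 2 strains lay further apart after treatment. Of 6 tubular injury markers, 5 were higher and 0 lower in LF than in L (Havcr1, Lcn2, Clu, Timp1 and Krt19), and 0 were higher and 5 lower in FL than in LF (Havcr1, Lcn2, Clu, Timp1 and Vim). Timp1 and Krt19 were higher and Lcn2 lower both in F than in L and in FL than in L, with Havcr1 also higher in F. Lcn2 was higher in LF than in F, and Clu lower in FL than in F. Of 12 proximal tubule markers, Slc5a2 and Cubn were higher and Slc22a6 lower in F than in L and in FL than in L, Slc5a2 was higher and Slc22a6 lower in FL than in LF, and Cubn was lower in LF than in F. Among 7 collecting duct markers, Aqp3 and Fxyd4 were lower in F than in L, in FL than in L and in FL than in LF, and Slc26a4 was higher in F than in L. Both measured endothelial markers, Plvap and Emcn, were lower in FL than in L, and Emcn in F than in L. Over the 6 pairs at most 2 of 5 leukocyte markers, 2 of 7 of adipose tissue, 1 of 6 of the loop and distal tubule, 1 of 7 of liver and 1 of 4 podocyte markers differed in any pair, and 0 of 7 adrenal markers. The part of these markers in the strain differences of the P450 genes was not tested.

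After 7 days of indole-3-carbinol, averaged over the 4 strains, 1 of 33 P450 genes changed: Cyp4b1 fell. The background was 4.94% of probe sets in either direction and 3.75% lower. Cyp4b1 (probe set 7290146) had 6.62, 6.80, 6.54 and 6.42 at day 7 in FL, against 7.07, 6.87, 6.89 and 7.07 in FL carrier kidneys. In LF it had 6.92, 7.19, 6.73 and 6.78 at day 7, against 7.10, 7.23, 7.31 and 7.26 with carrier. In F it had 6.78, 6.84, 6.95 and 6.31, against 6.76, 6.96, 6.95 and 6.81, and in L 6.88, 6.75, 6.91 and 6.84, against 7.08, 7.00, 7.25 and 6.78. The groups were separate in FL and overlapped in LF, F and L. The change was -0.26 ± 0.059 (SE, 95% interval -0.38 to -0.14, adjusted p = 0.00563), with -0.12 to -0.39 in the 4 runs. It lost its call without replicate number 3 (-0.24, adjusted p = 0.0988).

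At day 10 the mean of Cyp4b1 over the 16 treated arrays was 6.86 ± 0.24, against 7.02 ± 0.18 on the 16 carrier arrays (SD). The change of -0.16 ± 0.059 had an adjusted p of 0.19, with values below 0 in 4 of 4 runs. It passed after a second quantile normalization (0.049), with array medians subtracted (0.0374) and with array spread in the model (0.0284). At that day 0 of 33 P450 genes changed (background 2.41%), with 4 at an unadjusted p under 0.05, namely Cyp4b1, Cyp8b1, Cyp2d3 and Cyp26a1. Between day 10 and day 7, 0 genes differed (background 0.114%), and 2 had an unadjusted p under 0.05.

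**Figure D3:**
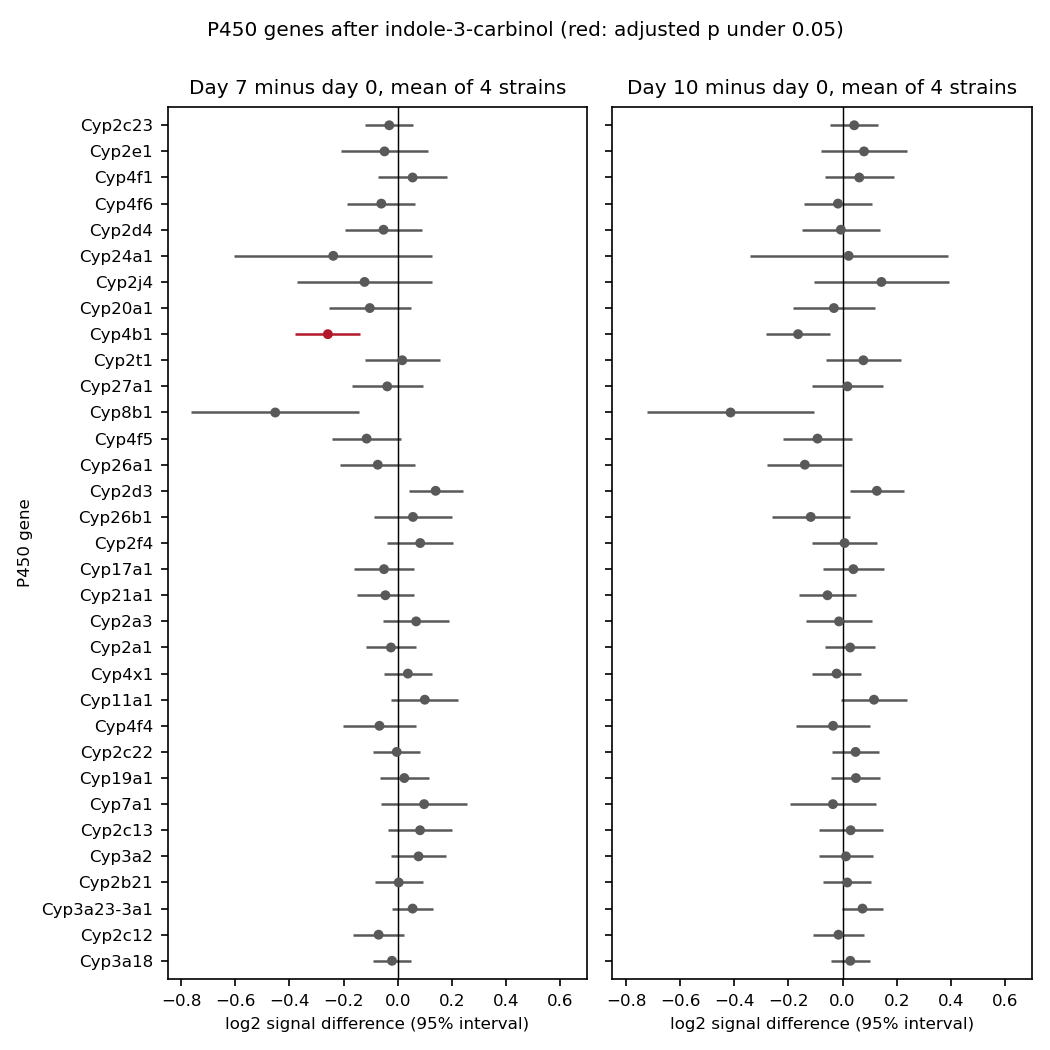
Log2 difference of treated from carrier kidneys over the mean of the 4 strains, at day 7 (left) and day 10 (right), for the 33 P450 genes ordered by mean signal with the brightest at the top. Points are estimates over 16 against 16 arrays, bars are 95% intervals, and Cyp4b1 at day 7 (-0.26) is the gene drawn in red for an adjusted p under 0.05.

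The intervals bound how large a mean response these P450 genes can have had. All 33 intervals lay within 1 log2 unit of 0 at both days, and 31 at day 7 and 32 at day 10 lay within 0.5, against 92.3% and 94% of all probe sets. The median change of the 33 genes was -0.025 at day 7 and 0.018 at day 10, against -0.029 and -0.0031 over all probe sets. Cyp2c23 stood at -0.031 ± 0.044 and 0.043 ± 0.044, Cyp2e1, which oxidises ethanol and small solvents, at -0.049 ± 0.079 and 0.079 ± 0.079, and Cyp2j4, an arachidonic acid epoxygenase, at -0.12 ± 0.12 and 0.14 ± 0.12. Cyp24a1 stood at -0.24 ± 0.18 at day 7 and 0.023 ± 0.18 at day 10, Cyp27a1 at -0.039 ± 0.065 and 0.018 ± 0.065, and Cyp2d4 at -0.053 ± 0.071 and -0.0063 ± 0.071. Cyp17a1 stood at -0.051 ± 0.056 and 0.040 ± 0.056. None of these passed the threshold at either day (adjusted p from 0.472 to 0.997). For the 16 dim genes an interval bounds the change of the signal only.

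Cyp8b1 had the lowest estimates, -0.45 ± 0.15 at day 7 (adjusted p = 0.075) and -0.41 ± 0.15 at day 10 (adjusted p = 0.216). At day 7 it passed without replicate number 3 (-0.64, adjusted p = 0.0434). In LF it had 6.38, 6.65, 6.51 and 6.72 at day 0, 5.0, 6.34, 5.65 and 5.74 at day 7, and 5.64, 5.25, 5.51 and 5.29 at day 10. All treated LF arrays lay below all carrier LF arrays at both days. The LF change at day 10 was -1.14 ± 0.31 (adjusted p = 0.0576), with -0.74 to -1.43 in the 4 runs. It passed with array medians subtracted (0.0425), with array spread in the model (0.0366) and with the dimmest 25% of probe sets left out (0.0451). In L it averaged 6.49 at day 0, 6.42 at day 7 and 6.58 at day 10. Cyp2d3 stood at 0.14 ± 0.049 at day 7 (adjusted p = 0.0895) and passed with array medians subtracted (0.20, adjusted p = 0.0157).

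Within single strains 0 of 33 P450 genes changed in any of the 8 comparisons, against backgrounds at days 7 and 10 of 0.159% and 0.0909% in FL, 2.26% and 0.887% in LF, 0.671% and 0.239% in F, and 0.0114% at both days in L. LF had 4 P450 genes at an unadjusted p under 0.05 at each day (Cyp2e1, Cyp4b1, Cyp4f5 and Cyp8b1), and the counts were 2 and 1 in FL, 1 and 4 in F, and 0 and 1 in L. No share of all probe sets was counted at that unadjusted threshold. The F test for a response that differs between strains called 0 of 33 (background 0.193%), with Cyp2b21 and Cyp2e1 at an unadjusted p under 0.05.

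Cyp2e1 had estimates of opposite sign in LF and L. In LF it had 10.88, 10.84, 10.74 and 10.75 at day 0, 10.38, 10.64, 10.04 and 10.31 at day 7, and 10.57, 10.67, 10.53 and 10.15 at day 10, so every treated array was lower. In L it had 10.12, 10.25, 10.62 and 10.22 at day 0, 10.67, 10.63, 10.44 and 10.39 at day 7, and 11.07, 10.81, 10.91 and 10.42 at day 10. In L both treated groups overlapped day 0. The LF change was -0.46 ± 0.16 at day 7 (adjusted p = 0.111) and -0.32 ± 0.16 at day 10 (adjusted p = 0.749). The L change at day 10 was 0.50 ± 0.16 (adjusted p = 0.964), above 0 in 4 of 4 runs. The limma F test of the difference in response between strains had an adjusted p of 0.667, so the difference in response was not past the threshold. With the run as a block the LF change at day 7 passed (adjusted p = 0.0293). The array medians of LF at day 7 lay 0.12 below those of LF at day 0, and with medians subtracted the change was -0.34.

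**Figure D4:**
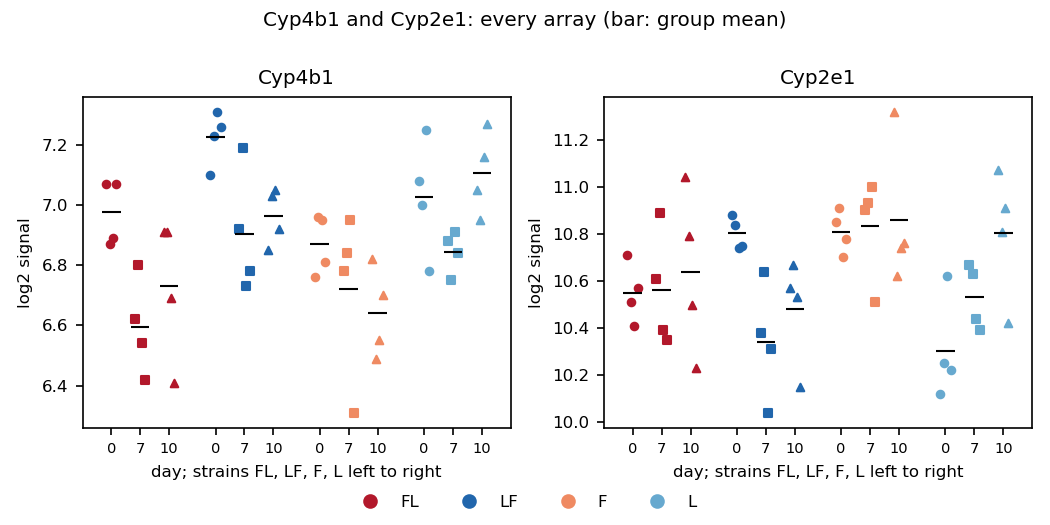
Log2 signal of Cyp4b1 (left) and Cyp2e1 (right) on every array, with strains FL, LF, F and L from left to right, days 0, 7 and 10 within each strain, and a bar at the mean of the 4 arrays of a group. Cyp4b1 at day 7 lies below day 0 in the mean of every strain, and Cyp2e1 at day 10 lies below day 0 in LF (10.48 and 10.80) and above it in L (10.80 and 10.30).

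Genes that work with the P450 enzymes were read from fixed lists, against the same backgrounds of 4.94% at day 7 and 2.41% at day 10. Of 12 measured electron transfer and haem supply genes, Cyb5a and Hmox1 rose at both days and 0 fell. Cyb5a, cytochrome b5, which passes electrons to some P450 enzymes, rose by 0.28 ± 0.074 at day 7 (adjusted p = 0.0205) and 0.31 ± 0.074 at day 10 (adjusted p = 0.0114). Hmox1, which degrades haem, rose by 1.73 ± 0.43 (adjusted p = 0.0119) and 1.88 ± 0.43 (adjusted p = 0.0079). Por, the P450 reductase, stood at 0.00 ± 0.069 and 0.013 ± 0.069. Both rises lost their calls without some replicate numbers, 2 at day 7 for each gene, and at day 10 2 for Cyb5a and 3 for Hmox1.

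Of 27 measured receptors and factors that regulate P450 genes, 0 rose and 5 fell at day 7. They were Dbp (-0.87 ± 0.10, adjusted p = 2.26e-07) and Tef (-0.41 ± 0.073, adjusted p = 0.000336), clock-controlled factors that drive detoxification genes, Ahr (-0.25 ± 0.073, adjusted p = 0.0375), which binds the products of indole-3-carbinol, Nr3c1 (-0.24 ± 0.069, adjusted p = 0.0337), the glucocorticoid receptor, and Stat5b (-0.26 ± 0.076, adjusted p = 0.0387), which relays growth hormone signals. At day 10 Dbp fell (-0.78 ± 0.10, adjusted p = 1.63e-06) and the other 26 did not pass. Ahr, Nr3c1 and Stat5b lost their day 7 calls without the 5 least spread arrays (adjusted p = 0.0988, 0.0831 and 0.0787). Nr3c1 lost it without any 1 of the 4 replicate numbers, and Ahr and Stat5b without 3 of the 4.

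Of 16 measured genes of arachidonic acid and epoxide handling, 0 rose and 4 fell at day 7. They were Pla2g4a (-0.42 ± 0.093, adjusted p = 0.00361), the phospholipase that releases arachidonic acid, Hpgd (-0.47 ± 0.11, adjusted p = 0.0044), which inactivates prostaglandins, Ptgs1 (-0.21 ± 0.062, adjusted p = 0.0426) and Ptgds (-0.27 ± 0.080, adjusted p = 0.0421). Ptgs1 and Ptgds lost their calls under 4 of 7 alternatives, a second quantile normalization, array medians subtracted, array spread in the model and the 5 least spread arrays left out. At day 10 Hpgd fell (-0.40 ± 0.11, adjusted p = 0.0266), a call lost without those 5 arrays (0.075). Leaving out 1 replicate number ended the calls of Ptgs1 and Ptgds for 4 of 4 numbers and that of Hpgd for 2 at day 7 and 3 at day 10.

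Of 15 measured genes of vitamin D uptake and action, 0 rose at either day, 5 fell at day 7 and 4 at day 10. Calb1, the calcium-binding protein of the distal tubule, fell by 0.89 ± 0.12 (adjusted p = 6.17e-06) at day 7 and by 0.84 ± 0.12 (adjusted p = 1.34e-05) at day 10. Kl fell by 0.34 ± 0.056 (adjusted p = 9.89e-05) and 0.31 ± 0.056 (adjusted p = 0.000537). Casr, the calcium-sensing receptor, fell at both days (-0.25 ± 0.066 and -0.26 ± 0.066, adjusted p = 0.0193 and 0.0177), Lrp2 (-0.15 ± 0.034, adjusted p = 0.00598) and Trpv5 (-0.36 ± 0.094, adjusted p = 0.0183) at day 7, and Gc (-0.35 ± 0.094, adjusted p = 0.0302) at day 10. Lrp2 lost its call with array medians subtracted (0.092), and Casr at day 7, Trpv5 and Gc lost theirs without the 5 least spread arrays (0.12, 0.0821 and 0.0905). Casr at day 7 also lost it with array spread in the model (0.051). Casr at both days and Gc lost their calls without any 1 of the 4 replicate numbers, and Lrp2 and Trpv5 without 2 of them. Vdr stood at 0.059 ± 0.066 at day 7 and 0.097 ± 0.066 at day 10.

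Of 31 measured genes of conjugation and other oxidation, Sult1a1, a sulfotransferase, rose at both days (0.76 ± 0.16, adjusted p = 0.00251, and 0.66 ± 0.16, adjusted p = 0.0146). At day 7 Ugt8, Ces1e and Maob fell (-0.47 ± 0.10, -0.42 ± 0.11 and -0.32 ± 0.084), and at day 10 Ces1e (-0.44 ± 0.11, adjusted p = 0.016). Of 30 measured steroid, bile acid and retinoid genes, 1 fell at each day, Hsd17b1 at day 7 (-0.27 ± 0.071, adjusted p = 0.0169) and Aldh1a3 at day 10 (-0.20 ± 0.054, adjusted p = 0.0347). Maob lost its call with array spread in the model (0.0554) and without the 5 least spread arrays (0.075), Hsd17b1 after a second quantile normalization (0.05), and Ces1e at day 10 and Aldh1a3 without the 5 least spread arrays (0.0635 and 0.12). Sult1a1 lost its call without 1 of the 4 replicate numbers at day 7 and without 3 at day 10, and Ces1e without 3 at each day. Aldh1a3 lost it without any 1 of the 4, Maob without 3, Hsd17b1 without 2 and Ugt8 without 1.

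Cell type markers moved beside these changes. At day 7, 3 of 12 measured proximal tubule markers, 5 of 6 of the loop and distal tubule, 4 of 7 of the collecting duct and 2 of 2 of the endothelium fell, and 5 of 6 tubular injury markers rose. Of 5 leukocyte markers Adgre1 and Cd4 fell, of 4 podocyte markers Podxl fell, and of 7 liver markers Fgb rose. At day 10 the tubule, duct and endothelial counts were 0, 4, 3 and 0 falls, and 5 injury markers rose. Itgam rose and Cd4 fell among the leukocyte markers, Apoh and Fgb rose among the liver markers, and 0 podocyte markers passed. Of 7 adrenal and 7 adipose tissue markers 0 passed at either day. The mean log2 signal of the 12 proximal tubule markers in LF lay between 11.53 and 11.72 at day 0, between 11.38 and 11.48 at day 7 and between 11.40 and 11.55 at day 10. Among the injury markers the mean of 6 in LF lay at 6.65 to 6.97 at day 0, 7.31 to 8.12 at day 7 and 8.20 to 8.86 at day 10. In L it lay at 6.45 to 6.73 at day 0, 6.33 to 6.71 at day 7 and 6.59 to 7.67 at day 10. In whole kidney RNA fewer cells of a type and less RNA per cell cannot be told apart, and the part of these shifts in the changes of Cyp4b1, Cyp8b1 and Cyp2e1 was not tested.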

How the data were processed

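Total kidney RNA was hybridised to whole-transcript arrays after removal of ribosomal RNA, per the labels' protocols. The deposited values are log2 signals. Per the submitters' processing notes RMA and limma were used, at versions and steps not given. The probe annotation build and any filter on probe sets are not given in the sources used here. Samples were grouped by strain and day from their titles. In R 4.3.3, limma 3.58.1 fitted 1 mean per group over 48 arrays (36 residual and 3.69 prior degrees of freedom), with Benjamini-Hochberg adjustment over 8797 probe sets, and figures were drawn with matplotlib 3.10.9. Scripts were tested on simulated data. The members, gene lists and named genes were chosen with earlier results of these data known. The rule for named genes took P450 genes past the threshold, the 5 brightest and 5 dimmest, a list of renal P450 genes, and up to 4 called partner genes per list in a strain-mean comparison. Partner genes beyond these, and those of LF against F, were chosen after their values were seen. Alternatives were the array run as a block, 2 rescalings, array spread in the model, the dimmest 25% left out, another variance model, arrays or replicate numbers left out, and, chosen after seeing the data, no 5 least spread arrays. Array runs were inferred from the array file names in the labels, where each replicate number has its own 1 of 4 name stems, and deviations correlated at 0.0942 on average within a number and -0.0314 between numbers. The lowest correlation within a number was -0.268, and 26 of the 48 arrays correlated best with their own number.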

Additional observations from a re-analysis of the deposited data

Results flagged for a closer look

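In 21 of 396 groups of 4 arrays, 1 array stood apart from the other 3, with a gap, relative to the whole range, above Dixon's 95% critical value. Chance gives about 1 in 20 groups, so the number is near what chance gives, and the cause was not tested. Replicate 4 of L at day 0 was the low array for 4 genes, with log2 signals of 5.96 for Cyp2t1 (next 6.61), 9.52 for Cyp4f1 (next 9.87), 5.0 for Cyp4f5 (next 5.18) and 7.75 for Cyp4f6 (next 8.07). Replicate 4 of LF at day 0 was low for Cyp4f6 (8.19, next 8.44), so both day 0 groups behind the LF against L value of Cyp4f6 hold such an array.

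Cyp2d3 was high on 1 array in FL at day 0 (4.57) and in F at day 10 (5.06), and low on 1 in L at day 7 (4.63). Cyp2f4 was low on 1 array in LF at day 0 (4.19), LF at day 7 (4.52), F at day 10 (4.29) and L at day 10 (4.47). Cyp2t1 was low on 1 array in LF at day 7 (6.41) and FL at day 10 (6.23), and Cyp4f5 in FL at day 10 (4.78).

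The other such arrays were of dim probe sets. They were low for Cyp17a1 in LF at day 7 (3.33), Cyp3a23-3a1 in F at day 7 (2.04) and L at day 7 (2.10) and Cyp4x1 in FL at day 0 (3.04), and high for Cyp21a1 in LF at day 0 (3.78) and Cyp7a1 in FL at day 10 (3.08).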

How the results depend on the processing

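Counts of P450 genes past the threshold depended on the setting in both directions, and no call turned its sign. The cause of these moves was not tested. With the array run as a replicate block, day 0 counts were 3 for F against L, 1 for LF against L, 4 for FL against L, 4 for LF against F and 5 for FL against LF, with 1 in LF at day 7 and 1 for FL against F over the mean of days, and the block moved no other count of P450 genes by over 1.5 times. The shares of all probe sets past the threshold at these counts were 2.22%, 0.341%, 2.66%, 3.42%, 6.18%, 8.21% and 0.796%, in that order. After a second quantile normalization the counts were 1 at day 10 in the strain mean, 4, 1, 5 and 4 at day 0 for F against L, LF against L, FL against L and FL against LF, and 4 for LF against L over the mean of days, at 4.63%, 3.29%, 0.5%, 3.34%, 5.97% and 1.55% of all probe sets. With array medians subtracted they were 2 at day 7 and 1 at day 10 in the strain mean, 1 in LF at day 10, and 3, 1 and 3 at day 0 for F against L, LF against L and FL against L, at 6.43%, 4.06%, 1.71%, 2.82%, 0.409% and 2.83%. With array spread in the model they were 1 at day 10 in the strain mean, 1 in LF at day 10, and 4, 2, 5 and 5 at day 0 for F against L, LF against L, FL against L and LF against F, at 5.77%, 2.47%, 3.99%, 0.659%, 3.71% and 5.3%. Without the dimmest 25% they were 1 in LF at day 10 and 2 at day 0 for FL against L, at 1.38% and 2.36% of the 6598 probe sets kept. Without the 5 least spread arrays they were 1, 3 and 4 at day 0 for F against L, FL against L and FL against LF, at 1.81%, 2.13% and 4.75%.

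Leaving out single replicate numbers or arrays gave 1 to 2 genes at day 7 in the strain mean, where the 2 were Cyp4b1 and Cyp8b1. At day 0 it gave 0 to 1 for F against L, 0 to 3 for FL against L, 0 to 3 for LF against F and 1 to 3 for FL against LF. Over the mean of days it gave 2 to 9 for F against L, 0 to 3 for LF against L and 2 to 8 for LF against F. The strain F test called 7 to 11 genes, and Cyp4f6, Cyp24a1, Cyp4f1, Cyp2d4, Cyp8b1, Cyp2d3 and Cyp4b1 passed in all these settings. The strain by day F test called 0 in all. Shares of all probe sets are not given for the settings with numbers or arrays left out. These counts therefore cannot be set against a general gain or loss of calls. Of 32 partner gene calls in the strain means, 18 were kept in all 7 alternatives, and 8 also without each replicate number. Averaging several probe sets of a gene was not run, since each P450 gene had 1. The number of arrays and the 16 dim probe sets limit what could be seen.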
